A study of Mus musculus with 35 samples.

Results

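The 9 genes described here carry peptides to major histocompatibility complex (MHC) class I molecules and load them: Tap1, Tap2, Tapbp, Tapbpl, Erap1, Pdia3, Calr and Canx, with Nlrc5, a transcriptional activator of class I genes. They were picked by name, as the rows of the count table whose Ensembl identifier carries one of these symbols in the annotation. All 9 were found, among 53379 genes in the table. Each was tested in all comparisons, so none was lost to the filter on low counts.

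Class I molecules show cytotoxic T cells short peptides from proteins made inside the cell. Peptides cut by the proteasome are pumped into the endoplasmic reticulum (ER) by the transporter TAP, a pair of the proteins encoded by Tap1 and Tap2. Inside the ER, the aminopeptidase ERAP1 trims them, the chaperones calnexin (Canx) and calreticulin (Calr) hold the folding class I chain, and tapasin (Tapbp) together with the oxidoreductase ERp57 (Pdia3) loads it at the transporter. TAPBPR (Tapbpl), a relative of tapasin, edits peptides away from that complex. NLRC5 sits with RFX and other factors at the promoters of class I genes, and interferons induce several genes of the pathway, whereas Calr, Canx and Pdia3 also serve general protein folding.

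RNA was sequenced from myeloid-derived suppressor cells (MDSC) of female C57BL/6 mice with tumors of T110299 cells, a pancreatic cancer line from a genetically engineered mouse (Ptf1a-Cre, with mutant and floxed p53 among its alleles), implanted into the pancreas. All mice of all groups bore such tumors, so no group shows MDSC of a healthy host, and the tumor is 1 cell line. Treated mice were given 50 µg poly(I:C), a double-stranded RNA sensed by MDA5, complexed with polyethylenimine (poly(I:C)c), intravenously on days 18 and 20 after implantation. The study's methods name glucose as the control, while its results and the labels call the control mice untreated. The labels state no age. From spleen and tumor, live CD11b+ cells were sorted as PMN-MDSC (Ly6Clo Ly6G+) or M-MDSC (Ly6Chi Ly6G-). Bulk tumor tissue was sequenced from untreated mice only. Each of the 9 groups held 4 libraries, except treated spleen PMN-MDSC with 3 and treated tumor M-MDSC with 3 once a library of 10 counts had been left out. Libraries are numbered within a group as names without order.

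The 30 MDSC libraries held 793070 to 4357105 counts (median 2459368), and the 4 bulk tumor libraries 3771590 to 8886115. Levels are given as CPM, counts scaled to the size of the library, with TMM factors over all 34 libraries. The sorted populations were set against their defining markers. Ly6g, which encodes the sorting antigen of PMN-MDSC, stood at 37.5 to 101 CPM in untreated spleen PMN-MDSC but at 0 to 8.98 CPM in untreated tumor PMN-MDSC. The 7 neutrophil markers summed to 13428 to 30179 CPM in untreated spleen PMN-MDSC. They summed to 962 to 3248 in untreated tumor PMN-MDSC and to 186 to 448 in untreated tumor M-MDSC. Csf1r, a monocyte and macrophage marker, was at 870.3 to 1152 CPM in untreated tumor PMN-MDSC and 1098 to 1204 in untreated tumor M-MDSC. It was at 445 to 985 CPM in untreated spleen PMN-MDSC. Ccr2, of the same list, was at 319 to 443 CPM in untreated tumor PMN-MDSC and 1074 to 1447 in untreated tumor M-MDSC, and Ly6c2 at 1.91 to 10.9 and 40.9 to 143. Of the 6 markers of that list, 2 were called higher and 2 lower in tumor M-MDSC. Spleen and tumor PMN-MDSC are therefore called by their sort labels below. Untreated spleen PMN-MDSC libraries 1 and 2 and untreated tumor M-MDSC library 4, the smallest with 793070 counts, stand apart for several of the 9 genes and are named where they touch a result. Treated tumor M-MDSC library 3 stands apart as well: its interferon-response level (mean log2 CPM) was 6.83, against 7.93 and 8.16 in the other treated libraries and 5.35 to 5.90 in the untreated ones. MHC class II genes summed to 4656 CPM there, against 1523 and 634, and T and NK cell markers to 124 CPM, against 7.12 and 20.8. Treated spleen M-MDSC library 4 had the highest sums of ER folding genes and of B cell and T and NK cell markers in its group, given beside the results it touches.

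Promoters were read from the RefSeq table for GRCm38.p6 (250 bases before to 50 after the start), which held 6 of the 9 genes: Tap1, Tapbp, Erap1, Pdia3, Calr and Canx. They were searched on both strands for 4 motifs. The interferon-stimulated response element GAAANNGAAA was found in 3.44% of 32851 promoters, the gamma-activated site TTCNNNGAA in 8.30%, the ER stress response element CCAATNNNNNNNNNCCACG in 0.119% and the CCAAT box, which lies within the ER stress element, in 37.4%. Of the 6 promoters, Calr and Canx, the chaperone pair, each held an ER stress element, Erap1 held an interferon-stimulated element, and none held the gamma-activated site as spelled. The windows are shown because Calr and Canx are also the pair whose treatment effect differed between cell types below. Each is given 5′ to 3′ on the strand of the gene, with the match in capitals, from chr8:84847060-84847108 (minus strand) for Calr, chr11:50325785-50325833 (minus strand) for Canx and chr13:74639834-74639873 (plus strand) for Erap1.

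Calr: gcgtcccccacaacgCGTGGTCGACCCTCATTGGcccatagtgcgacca

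Canx: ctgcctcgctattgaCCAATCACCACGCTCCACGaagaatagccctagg

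Erap1: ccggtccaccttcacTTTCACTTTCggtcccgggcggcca

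The match of Canx reads in the direction of the gene and starts 145 bases before the first transcribed base. Those of Calr and Erap1 read on the opposite strand, from 162 and 4 bases before it. A match is a description of these letters and not a site shown to be bound.

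Tap1 (GRCm38 chr17:34187553-34197225, plus strand) starts head to head with Psmb9, an immunoproteasome subunit on the minus strand, and their promoter windows share 275 bases. This stretch, chr17:34187306-34187580, is shown because both genes are measured here and start from it. Read 5′ to 3′ on the strand of Tap1, with the CCAAT box in capitals, it is:

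Tap1 and Psmb9: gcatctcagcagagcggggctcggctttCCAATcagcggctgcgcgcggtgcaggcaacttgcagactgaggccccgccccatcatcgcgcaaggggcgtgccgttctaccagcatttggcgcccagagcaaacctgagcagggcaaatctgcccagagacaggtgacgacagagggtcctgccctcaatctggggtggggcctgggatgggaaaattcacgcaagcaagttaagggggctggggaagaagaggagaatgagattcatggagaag

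Tap2 (chr17:34203527-34216321, plus strand) and Tapbp (chr17:33915899-33929292, plus strand) lie in the same region of chromosome 17. The others are spread over the genome: Tapbpl at chr6:125223933-125231860 (minus strand), Erap1 at chr13:74639568-74693201 (plus strand), Pdia3 at chr2:121413775-121438687 (plus strand), Calr at chr8:84841850-84846934 (minus strand), Canx at chr11:50293961-50325673 (minus strand) and Nlrc5 at chr8:94434356-94527272 (plus strand). Fragments were counted by strand, so antisense neighbours such as Psmb9 are kept apart. Tapbp shares exon sequence on its own strand with Zbtb22, and its counts there are uncertain.

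Levels of different genes were compared per kilobase of exon (FPKM, from the same CPM). In untreated spleen M-MDSC the order was Calr with 165 ± 55.5 FPKM, Pdia3 with 101 ± 15.1, Canx with 84.5 ± 6.84, Tapbp with 70.4 ± 11.5, Tap1 with 29.7 ± 6.83, Tap2 with 17 ± 5.0, Nlrc5 with 16.6 ± 5.14, Tapbpl with 9.82 ± 3.67 and Erap1 with 8.55 ± 0.787 (SD, n = 4). Tap2 and Nlrc5 differed by less than their spread, as did Tapbpl and Erap1. Treated spleen PMN-MDSC had another order, led by Tapbp with 151 ± 31.8 and Tap1 with 123 ± 36 FPKM, ahead of Calr with 58.0 ± 15.1 and Canx with 19.3 ± 10.8 (SD, n = 3).

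**Figure D1:**
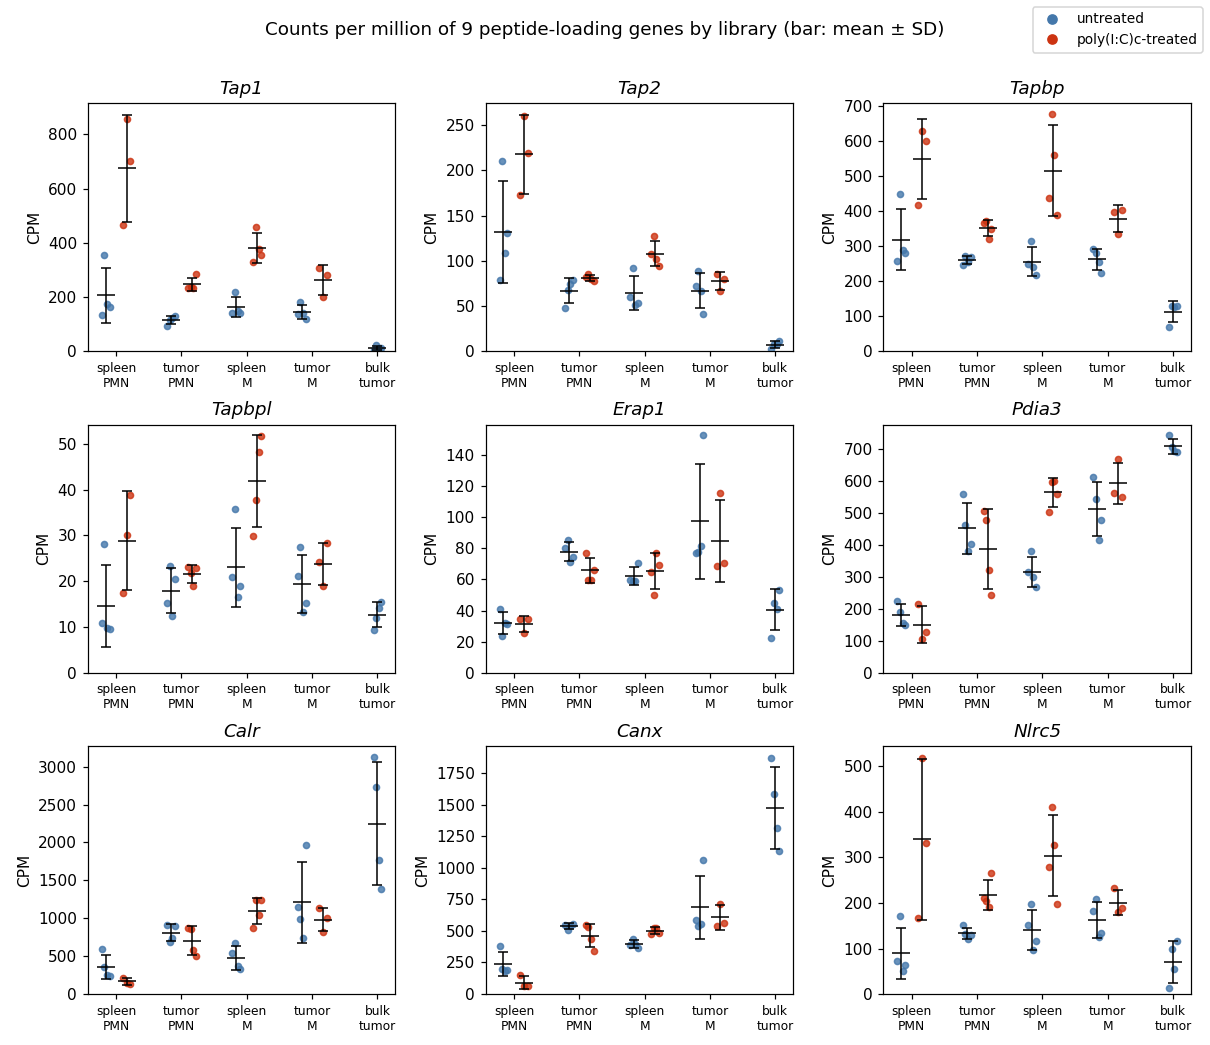
Each panel plots 1 gene, with CPM on a linear axis from 0 and the 5 cell populations or tissues on the other axis; points are libraries (blue untreated, red poly(I:C)c-treated) and black bars the mean ± SD. Tap1 is lowest in bulk tumor (12.9 CPM) and highest in treated spleen PMN-MDSC (675 CPM), whereas Calr and Canx are lowest in treated spleen PMN-MDSC (167 and 90.4 CPM) and highest in bulk tumor.

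Over the 8 MDSC groups, the highest group mean exceeded the lowest by 7.59 times for Canx, 7.23 times for Calr and 5.84 times for Tap1, and by 2.15 times for Tapbp, the smallest range of the 9. Treated spleen PMN-MDSC had the lowest mean of Erap1, Pdia3, Calr and Canx and the highest of Tap1 and Tap2, with TMM factors and with library totals alike. With TMM factors they also had the highest mean of Tapbp and Nlrc5, whereas with library totals treated spleen M-MDSC came first for both (583 against 376 CPM for Tapbp and 344 against 229 CPM for Nlrc5). With groups ordered by mean, the libraries of most neighbours overlapped. Nlrc5 and Tapbpl overlapped in 8 of 8 neighbouring pairs, Tapbp, Erap1 and Calr in 7, Tap2, Pdia3 and Canx in 6 and Tap1 in 5.

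To ask how poly(I:C)c changed these genes, treated and untreated libraries were compared within each cell type and compartment with edgeR's quasi-likelihood test, with Benjamini-Hochberg adjustment over all genes tested, at an adjusted p under 0.05. The transporter gene Tap1 rose in spleen PMN-MDSC, tumor PMN-MDSC and spleen M-MDSC, as did Nlrc5, and Tapbp rose in both spleen populations. Tap2, Pdia3 and Calr rose in spleen M-MDSC. In all, 6 of the 9 genes rose in spleen M-MDSC, 3 in spleen PMN-MDSC and 2 in tumor PMN-MDSC, and none fell by this test. The count in spleen PMN-MDSC ran from 0 (without treated library 3) to 5 (without untreated library 2) when 1 library was left out. There 5 of 9 were called by DESeq2 (18.6% of all genes), 6 in the fit over all 34 libraries (24.1%) and 7 without a filter on low counts (6.58%), each with Calr and Canx as lower. In tumor M-MDSC 0 of 9 passed by edgeR, while 2 (Tap1 and Tapbp) had an unadjusted p under 0.05, against 19.2% of all genes, and the same 2 were called by DESeq2, against 9.53%. Without treated library 3, edgeR called 1, Tap1.

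Among all genes tested, 19.4% were called in spleen M-MDSC (9.96% higher), 11.6% in spleen PMN-MDSC (6.10% higher), 3.36% in tumor PMN-MDSC (2.29% higher) and 2.88% in tumor M-MDSC (1.82% higher). A stricter threshold, an adjusted p under 0.001 and a 2-fold change, was applied to the main edgeR fit only, whereas the study used DESeq2. There 0 of the 9 genes passed in any of the 4 comparisons. The shares of all genes were 2.49% in spleen M-MDSC, 0.241% in tumor PMN-MDSC, 0.0413% in spleen PMN-MDSC and 0.0120% in tumor M-MDSC. Under alternative fits, Tap1 in both spleen populations, Calr in spleen M-MDSC and Nlrc5 in spleen PMN-MDSC reached an adjusted p under 0.001. Their changes were over 2-fold in every fit. The columns of the count table carry no mouse number, so libraries of the same mouse could not be matched and the p-values measure the spread between libraries.

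**Figure D2:**
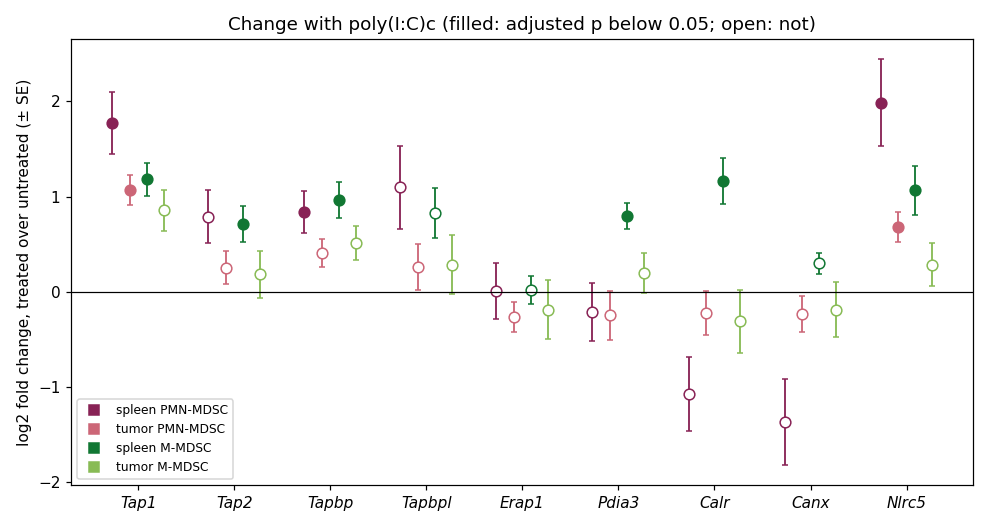
For each of the 9 genes, the log2 fold change of treated over untreated libraries is plotted with its SE in the 4 cell populations (color); filled circles have an edgeR adjusted p under 0.05 and open circles do not. Tap1 and Nlrc5 are filled in 3 populations, Calr lies above 0 in spleen M-MDSC (1.17) and below 0 in the other 3, and Erap1 lies near 0 in both spleen populations.

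Tap1 and Tap2 encode the partner chains of the transporter. Tap1 in spleen PMN-MDSC stood at 134, 354, 173 and 164 CPM in untreated and 465, 856 and 703 CPM in treated libraries. All treated libraries lay above all untreated ones, although untreated library 2, with 354 CPM, was higher than the others and also had the highest interferon-response level of its group, whose part was not tested. The log2 fold change was 1.78 ± 0.33 (SE, edgeR adjusted p = 0.0136), a 3.42-fold increase. Without treated library 3 the adjusted p was 0.0511.

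In tumor PMN-MDSC, Tap1 went from 92.7, 117, 123 and 130.2 CPM untreated to 235, 236, 233 and 284 CPM treated, again without overlap (log2 1.07 ± 0.16, edgeR adjusted p = 0.00341). Spleen M-MDSC held 142, 218, 148 and 142 CPM untreated and 331, 457, 378 and 354 CPM treated (log2 1.18 ± 0.17, edgeR adjusted p = 0.00147). These groups were also separate. Tumor M-MDSC, with 139, 181, 139 and 117 CPM against 308, 200.4 and 282 CPM, did not overlap either but missed the threshold (log2 0.85 ± 0.22, edgeR adjusted p = 0.0657). Without treated library 3, which stands apart and had the lowest treated value, it passed (log2 1.02, edgeR adjusted p = 0.0247). In tumor M-MDSC, red pulp macrophage markers summed to more in all treated libraries (106 to 218 CPM untreated and 223 to 826 CPM treated), and dendritic cell markers (12.8 to 28.8 CPM and 1.58 to 7.74 CPM) and MHC class II genes (4675 to 6505 CPM and 634 to 4656 CPM) to less, but 0 genes of these lists were called (0 of the 6 dendritic cell markers passed the filter). Ccr2 stood at 1074 to 1447 CPM untreated and 31.6 to 461 CPM treated. Their part in the Tap1 values was not tested.

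Tap2 in spleen M-MDSC stood at 60.3, 91.9, 51.5 and 52.9 CPM untreated and 107, 127, 102 and 94.6 CPM treated, which did not overlap (log2 0.71 ± 0.19, edgeR adjusted p = 0.0276). The call was lost in the fit over all 34 libraries (log2 0.75, edgeR adjusted p = 0.0750) and when any of 4 of the 8 libraries was left out, untreated 1, 3 or 4 or treated 1, with an adjusted p of up to 0.0808. Spleen PMN-MDSC had 79.0, 209.9, 108 and 131 CPM untreated and 173, 260.4 and 219 CPM treated. The groups overlapped through untreated library 2, and the change of 0.79 ± 0.28 had an edgeR adjusted p of 0.109. In tumor, Tap2 was at 67.0 ± 13.8 and 81.4 ± 3.34 CPM in untreated and treated PMN-MDSC (SD, n = 4 each), and at 67.1 ± 19.8 (n = 4) and 77.6 ± 9.56 CPM (n = 3) in M-MDSC, without a call.

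The ratio of Tap1 to Tap2 per length, examined after the values had been seen and not tested, was higher in every treated library than in every untreated one within all 4 cell populations. In spleen PMN-MDSC it was 1.08 ± 0.144 untreated (n = 4) and 2.11 ± 0.225 treated (n = 3), and in tumor PMN-MDSC 1.21 ± 0.0978 and 2.10 ± 0.286 (SD, n = 4 each). Spleen M-MDSC had 1.77 ± 0.176 and 2.43 ± 0.208 (n = 4 each), and tumor M-MDSC 1.54 ± 0.299 (n = 4) and 2.33 ± 0.228 (n = 3). The shift in log2 ratio was 0.98 ± 0.14, 0.80 ± 0.11, 0.46 ± 0.10 and 0.61 ± 0.15 (SE), in that order.

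**Figure D3:**
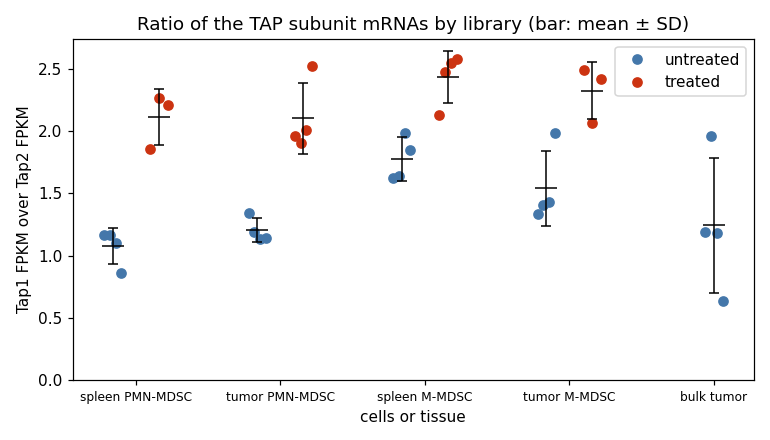
The ratio of Tap1 to Tap2 FPKM is plotted for each library (blue untreated, red treated) by cell population or tissue, with the mean ± SD as black bars and a linear axis from 0. Treated libraries range from 1.86 to 2.58 and lie above the untreated libraries of the same cells in all 4 populations.

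Tapbp, the tapasin gene, rose in both spleen populations. Spleen M-MDSC had 249, 315, 239 and 219 CPM untreated and 437, 677, 559 and 388 CPM treated, without overlap (log2 0.97 ± 0.19, edgeR adjusted p = 0.00622). Spleen PMN-MDSC had 257, 448, 289 and 279.6 CPM untreated and 417, 629 and 599.9 CPM treated. There the highest untreated library lay above the lowest treated one, and the call was close to the threshold (log2 0.84 ± 0.22, edgeR adjusted p = 0.0442). It was lost without untreated library 1, 3 or 4 or treated library 2 or 3, at adjusted p-values of up to 0.163, and also without untreated libraries 1 and 2 together (0.0783) and with library totals in place of TMM (log2 0.56, edgeR adjusted p = 0.0796).

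In tumor, the libraries of Tapbp were separate in both cell types while the test was not passed. PMN-MDSC held 247, 271, 253 and 269 CPM untreated and 367, 371, 319 and 348 CPM treated (log2 0.41 ± 0.14, edgeR adjusted p = 0.162). M-MDSC held 291, 281, 254 and 223 CPM untreated and 396, 335 and 404 CPM treated (log2 0.52 ± 0.18, edgeR adjusted p = 0.153). Groups without overlap, with treated libraries higher, were seen for Tap1, Tapbp and Nlrc5 in tumor PMN-MDSC, where 6.93% of all genes had this pattern, and for Tap1 and Tapbp in tumor M-MDSC, against 10.1%. In spleen M-MDSC it was 7 genes (all but Tapbpl and Erap1), against 13.5%, and in spleen PMN-MDSC 1 gene, Tap1, against 10.7%.

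Tapbpl was the least abundant by CPM in all MDSC groups, at 14.6 ± 9.01 to 23.1 ± 8.63 CPM in the untreated ones. In spleen M-MDSC it was at 21, 35.7, 16.6 and 19 CPM untreated and 29.9, 37.7, 48.2 and 51.9 CPM treated. Untreated library 2 lay within the treated range, and the change missed the threshold (log2 0.83 ± 0.26, edgeR adjusted p = 0.0526). Spleen PMN-MDSC held 11, 28, 9.66 and 9.57 CPM untreated and 17.4, 30.2 and 38.9 CPM treated (log2 1.10 ± 0.43, edgeR adjusted p = 0.142). Without untreated library 2, the change in spleen PMN-MDSC was called. In tumor the log2 fold changes were 0.26 ± 0.24 and 0.29 ± 0.31 in PMN- and M-MDSC.

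Erap1, the trimming enzyme, did not pass the test in any population. Its log2 fold changes were 0.01 ± 0.29 in spleen PMN-MDSC and 0.02 ± 0.15 in spleen M-MDSC, whose libraries were at 59.9, 59.3, 58.9 and 70.8 CPM untreated and 64.8, 50.0, 77.3 and 69.3 CPM treated. In tumor PMN-MDSC it was at 80.4, 85.3, 71.4 and 74.2 CPM untreated and 77.3, 59.8, 59.8 and 66.4 CPM treated (log2 -0.26 ± 0.16, edgeR adjusted p = 0.416). Its direction in both spleen populations depended on the scaling, with -0.30 and -0.03 when library totals were used. Of 12 genes of an interferon-response list, 11 rose in spleen M-MDSC, 10 in spleen PMN-MDSC, 12 in tumor PMN-MDSC and 6 in tumor M-MDSC. Those with the smallest adjusted p in spleen M-MDSC were Ifit2 (log2 3.63), Ifit1 (4.26) and Bst2 (2.67), where the median of the list was 3.12.

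Nlrc5 rose in 3 populations. Spleen PMN-MDSC had 72.6, 171, 50.3 and 63.2 CPM untreated and 168, 519.6 and 332 CPM treated, and untreated library 2 reached the lowest treated library (log2 1.99 ± 0.46, edgeR adjusted p = 0.0270). The adjusted p was 0.0595 to 0.0827 without untreated library 1, 3 or 4 or treated library 2 or 3. Spleen M-MDSC had 153, 197, 97.2 and 117 CPM untreated and 280.1, 411, 328 and 197 CPM treated (log2 1.07 ± 0.26, edgeR adjusted p = 0.0190), and the call was lost without untreated library 3 or 4 (0.0508 and 0.0617) and in the fit over all 34 libraries (0.0773).

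Tumor PMN-MDSC held 151, 131, 120.2 and 130.2 CPM of Nlrc5 untreated and 211, 205, 190.4 and 265 CPM treated. The groups were separate (log2 0.68 ± 0.16, edgeR adjusted p = 0.0413), although leaving out any library except treated library 3 lost the call, at adjusted p-values of up to 0.138, and so did the fit over all 34 libraries (0.38). In these tumor PMN-MDSC, in which Tap1 and Nlrc5 rose, dendritic cell markers summed to 15.2 to 25.2 CPM untreated and 0.976 to 12.9 CPM treated, and MHC class II genes to 7515 to 10434 CPM and 584 to 3252 CPM. Ccr2 went from 319 to 443 CPM down to 12 to 78.1 CPM and Ly6c2 from 1.91 to 10.9 CPM up to 68.1 to 278 CPM, and red pulp macrophage markers overlapped (300.5 to 508 CPM and 417 to 721 CPM), as did neutrophil markers (962 to 3248 CPM and 2589.8 to 10218 CPM). Their part in the rise of Tap1 and Nlrc5 was not tested. Tumor M-MDSC, with 183, 209, 126 and 134 CPM of Nlrc5 against 233, 180.3 and 189 CPM, overlapped (log2 0.29 ± 0.22, edgeR adjusted p = 0.538).

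Calr and Canx, the chaperone genes, differed in their response between M- and PMN-MDSC of the spleen. Calr rose in spleen M-MDSC, from 541, 671, 365 and 327 CPM to 875, 1234, 1048 and 1236 CPM, without overlap (log2 1.17 ± 0.24, edgeR adjusted p = 0.00794). In spleen PMN-MDSC it stood at 589, 356, 249 and 239.7 CPM untreated and 217, 149.7 and 135 CPM treated. All treated libraries were lower, but the difference missed the threshold (log2 -1.07 ± 0.39, edgeR adjusted p = 0.115). The difference between these effects, tested as an interaction over the 4 spleen groups, was 2.18 ± 0.46 on the log2 scale (edgeR adjusted p = 0.0112). It passed in each of the 21 alternative fits, the one without untreated spleen PMN-MDSC libraries 1 and 2 included (0.0288).

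Canx had 381, 202, 181 and 189.6 CPM in untreated and 149, 61.0 and 61.6 CPM in treated spleen PMN-MDSC. Again all treated libraries were lower without passing the test (log2 -1.37 ± 0.45, edgeR adjusted p = 0.0883). Calr and Canx were the 2 genes lower in all treated libraries, a pattern of 14.3% of all genes there. Spleen M-MDSC held 388, 439.9, 395 and 363 CPM untreated and 477, 525, 525 and 482 CPM treated (log2 0.30 ± 0.11, edgeR adjusted p = 0.0870). The interaction was 1.62 ± 0.44 (edgeR adjusted p = 0.0303). It was not called without untreated M-MDSC library 1, 3 or 4, treated M-MDSC library 3 or treated PMN-MDSC library 2 or 3 (adjusted p up to 0.0825), nor without untreated PMN-MDSC libraries 1 and 2 together (0.0663).

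Pdia3 rose in spleen M-MDSC, from 317, 381, 299 and 268 CPM to 504, 597, 600.1 and 561 CPM, without overlap (log2 0.80 ± 0.14, edgeR adjusted p = 0.00325). In spleen PMN-MDSC it was at 225, 191, 155 and 150.1 CPM untreated and 216, 106 and 129 CPM treated, which overlapped (log2 -0.21 ± 0.31, edgeR adjusted p = 0.706). The interaction of 0.96 ± 0.31 missed the threshold (edgeR adjusted p = 0.0642), but was called by DESeq2 (0.0148) and in the fit over all 34 libraries (0.0179), among 6 of 21 alternatives. By edgeR, Calr and Canx, 2 of the 9 genes, differed in treatment effect between the spleen populations, against 10.9% of all genes. DESeq2 called 3, against 15.4%.

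No member was called in the other 3 interactions, where 2, 2 and 0 members had an unadjusted p under 0.05, against 16.5%, 14.2% and 8.59% of all genes. Between tumor and spleen, 3.50% of genes differed in treatment effect in PMN-MDSC. In M-MDSC the share was 0.790%, and between cell types in tumor 0.0239%. The interaction terms closest to a call were those of Calr in M-MDSC, with a log2 difference of -1.46 ± 0.42 between tumor and spleen (edgeR adjusted p = 0.126), and of Nlrc5 in PMN-MDSC, with -1.28 ± 0.49 (edgeR adjusted p = 0.184). DESeq2 called 0 members for PMN-MDSC between compartments, 1 (Calr) for M-MDSC, against 3.52% of all genes, and 0 in tumor.

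In tumor M-MDSC the chaperones were at 1142, 988, 736 and 1967 CPM untreated and 1129.9, 819 and 1000.2 CPM treated for Calr, and at 583, 543, 555 and 1062 CPM untreated and 539, 716 and 565 CPM treated for Canx. The highest value of both was untreated library 4. The log2 fold changes of -0.31 ± 0.33 and -0.19 ± 0.29 turned to 0.03 and 0.10 without that library. In tumor PMN-MDSC, Pdia3, Calr and Canx had log2 fold changes of -0.25 ± 0.25, -0.22 ± 0.23 and -0.24 ± 0.19, with no call.

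Other transcripts moved with Calr and Canx in spleen PMN-MDSC. The 7 MHC class II genes summed to 1351 to 5260 CPM untreated, highest in library 1, and to 103 to 143 CPM treated. The 6 dendritic cell markers summed to 28.6 to 81.6 CPM against 0.870 to 5.33 CPM, with Flt3 and Xcr1 at 0 in all treated libraries and Siglech at 0 in all libraries of both groups. The 4 red pulp macrophage markers summed to 259 to 878 CPM against 153 to 185 CPM, and the 3 erythroid markers to 60.8 to 154 CPM against 0 to 5.22 CPM. The 7 neutrophil markers summed to 13428 to 30179 CPM untreated and 35633 to 39622 CPM treated. By the test 4 of these 7 rose and 0 fell, while Csf3r stood at 5946 to 11415 CPM untreated and 2266 to 7871 CPM treated. Of the 6 monocyte and macrophage markers, 4 fell and 1 rose, with a median log2 fold change of -2.02. Csf1r went from 445 to 985 CPM down to 187 to 375 CPM and Ccr2 from 44.6 to 239.5 CPM down to 1.18 to 2.61 CPM, whereas Ly6c2 went from 44.1 to 118 CPM up to 793 to 1460 CPM, so that the sum of the 6 overlapped (785 to 1458 CPM and 1043 to 1944 CPM). The sums of the 4 B cell markers (29.8 to 68.6 CPM and 11.3 to 36.1 CPM) and of the 6 T and NK cell markers (7.24 to 16.1 CPM and 2.52 to 7.69 CPM) overlapped too. The part of these markers in the values of the 9 genes was not tested, and in a sorted bulk library fewer cells of a type cannot be told apart from less RNA per cell.

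In spleen M-MDSC, MHC class II genes also summed to less in all treated libraries (2185 to 4534 CPM untreated, 327 to 793 CPM treated), as did erythroid markers (17.7 to 47.5 CPM and 0.606 to 2.66 CPM), while the sums of monocyte and macrophage markers (2679 to 3110 CPM and 1819 to 2800 CPM), dendritic cell markers (7.46 to 25.6 CPM and 8.06 to 28.8 CPM) and neutrophil markers (1238 to 2203 CPM and 571 to 1985 CPM) overlapped. Of the 6 monocyte and macrophage markers, 2 fell and 1 rose. Ccr2 went from 987 to 1289 CPM down to 77.2 to 269 CPM and Ly6c2 from 94.2 to 170.5 CPM up to 669 to 869.8 CPM. Treated library 4 held 97.3 CPM of B cell markers, against 9.40 to 15.7 in the other treated and 10.2 to 48.5 in the untreated libraries, and 42.4 CPM of T and NK cell markers, against 3.69 to 5.58 and 1.96 to 6.44. Its red pulp macrophage markers summed to 453 CPM, against 143 to 296 and 120.2 to 202. Without that library 1808 genes were called in all, against 1716 with it. Of the 9 genes 6 were called: Tap1 (log2 1.25, edgeR adjusted p = 0.00158), Tap2 (0.80, 0.0219), Tapbp (1.11, 0.00220), Pdia3 (0.83, 0.00311), Calr (1.13, 0.0129) and Nlrc5 (1.26, 0.00614). The part of the other markers in the higher values was not tested.

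Other genes of the pathway were followed in lists. Of 8 class I molecules, 8 rose in spleen M-MDSC, 5 in spleen PMN-MDSC, 8 in tumor PMN-MDSC and 7 in tumor M-MDSC. Those with the smallest adjusted p in spleen M-MDSC were H2-Q4 (log2 2.17), H2-Q6 (4.27) and H2-Q7 (3.33), which are near-identical to other class I genes and therefore uncertain. The median log2 fold change of this list was 1.30, 1.99, 1.32 and 1.42 in that order, where the medians of all genes were -0.03, 0.01, 0.01 and 0.00. Of 6 immunoproteasome genes, 5, 2, 1 and 0 rose. Psmb9, which shares its promoter with Tap1, changed by 0.98 ± 0.17 in spleen M-MDSC, 1.66 ± 0.33 in spleen PMN-MDSC and 0.77 ± 0.18 in tumor PMN-MDSC, all called, and by 0.53 ± 0.26 in tumor M-MDSC, where it was not. Tap1 passed the test in the same 3 populations, and so did Nlrc5, which lies on chromosome 8. In tumor M-MDSC the edgeR adjusted p was 0.0657 for Tap1 and 0.304 for Psmb9. The part of the shared promoter was not tested.

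Of 7 MHC class II genes, 7 fell in both spleen populations and 5 in tumor PMN-MDSC, with Ciita, the class II counterpart of Nlrc5, at log2 -3.19 in spleen M-MDSC and -4.56 in spleen PMN-MDSC, where Nlrc5 rose. In tumor PMN-MDSC, Ciita fell too (log2 -2.79, edgeR adjusted p = 0.0188). In tumor M-MDSC, 0 of 7 were called, with Ciita at -2.68 (edgeR adjusted p = 0.111).

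The ER folding list, 14 chaperones and oxidoreductases outside the 9 genes, was set beside Calr, Canx and Pdia3. In spleen M-MDSC, 7 of 14 rose, among them Hspa5, the main ER chaperone BiP (log2 1.36, edgeR adjusted p = 0.0223), its cofactor Dnajb11 (0.90, edgeR adjusted p = 0.0112) and Hyou1 (1.09, edgeR adjusted p = 0.0200). The list summed to 6478 CPM in treated library 4 and to 3360 to 4107 CPM in the other treated libraries. Without that library, left out after seeing the data, 7 of 14 rose, with Creld2 in place of Ganab, and the median of the list was 0.71, against 0.92 with it. The same 3 genes were at -0.53, -0.06 and -0.76 in spleen PMN-MDSC and passed no test there. In that population 0 of 13 tested rose and 1, Pdia4, fell (log2 -1.78, edgeR adjusted p = 0.0442). The medians of the list were 0.92 in spleen M-MDSC, -0.53 in spleen PMN-MDSC, -0.20 in tumor PMN-MDSC, where Uggt1 fell (log2 -0.62), and -0.13 in tumor M-MDSC. Of 9 genes for transport into and across the ER, 2 rose in spleen M-MDSC, Sec61b (log2 0.73) and Ssr2 (1.22), and 0 in the other 3. Of 7 other aminopeptidases, 5 were tested in spleen M-MDSC and 1, Lap3, rose (log2 0.76, edgeR adjusted p = 0.0160).

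The levels of the 9 genes were correlated on the log2(CPM + 1) scale over the 30 MDSC libraries, which share cell types, treatment and possibly mice and are not independent. Calr, Canx and Pdia3 followed each other with Pearson's r of 0.89 to 0.93, and Erap1 followed them with 0.79 to 0.86. Tap1 and Tapbp had r = 0.93 and Tap1 and Tap2 r = 0.83. Tapbpl was closest to Nlrc5 (0.81). Tap1 and Tapbp had r = 0.73 and 0.78 with Nlrc5. Between Erap1, Pdia3, Calr and Canx on one side and the other 5 genes on the other, r lay between -0.82 (Tap2 and Erap1) and 0.27, although Tap1, Calr and Pdia3 rose together in spleen M-MDSC.

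**Figure D4:**
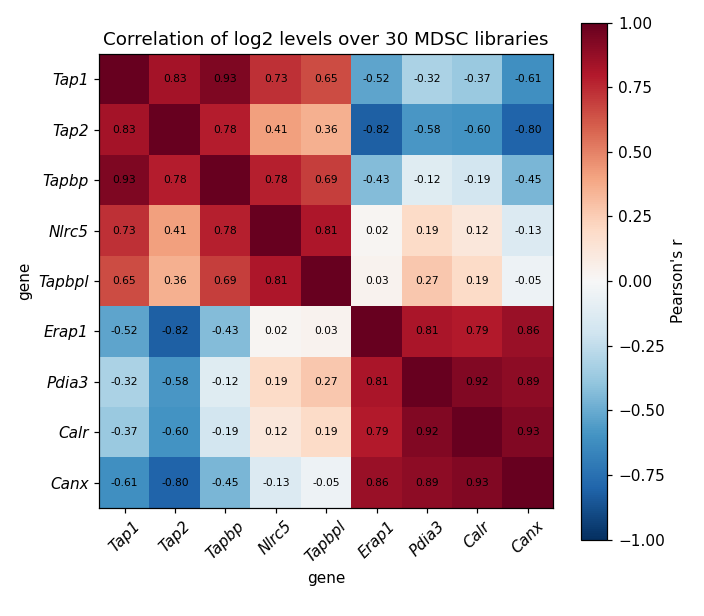
Pearson's r of log2(CPM + 1) over 30 MDSC libraries is given for each pair of the 9 genes, with red for positive and blue for negative values; both axes list the genes. A block of Tap1, Tap2, Tapbp, Nlrc5 and Tapbpl (0.36 to 0.93) and a block of Erap1, Pdia3, Calr and Canx (0.79 to 0.93) are seen.

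Among 8533 genes, those most like each member over the same libraries were Trafd1 (r = 0.98) and Parp9 (0.95) for Tap1, Uba7 (0.93) and Cd52 (0.93) for Tap2, and Tap1 (0.93) and Znfx1 (0.92) for Tapbp. Ifi47 was the closest to both Nlrc5 (0.92) and Tapbpl (0.85), followed by Gbp5 (0.89) and Psmb8 (0.83). Of the second block, Erap1 was closest to Rsrc1 (0.93) and Npm1 (0.93), Pdia3 to Caprin1 (0.97) and Stt3a (0.96), Calr to Hsp90ab1 (0.95) and Lrrc59 (0.95), and Canx to Mrps5 (0.97) and Cct3 (0.97).

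Differences before treatment were measured in the untreated libraries, which are the same controls as above. Between tumor and spleen, the chaperones were higher in tumor in both cell types. In PMN-MDSC, the log2 difference of Pdia3 was 1.49 ± 0.21 (edgeR adjusted p = 0.000185), that of Calr 1.33 ± 0.30 (0.00325), of Canx 1.32 ± 0.26 (0.00142) and of Erap1 1.42 ± 0.20 (0.000198). The tumor libraries lay above all spleen libraries for each of these 4, as they did for 22.8% of all genes. Tap2 was lower in tumor (-0.79 ± 0.27, edgeR adjusted p = 0.0272), and Tap1, at -0.66 ± 0.27, did not overlap but missed the threshold (edgeR adjusted p = 0.0588). In all, 5 of 9 genes differed, against 59.1% of all genes. Without spleen library 1 the lower Tap1 was called as well (-0.80, edgeR adjusted p = 0.0204). Without spleen library 2, Tap2 lost its call (-0.47, edgeR adjusted p = 0.0768), while Tapbpl (0.99, 0.0148) and Nlrc5 (1.27, 0.000266) gained one. These 2 groups also differ in the neutrophil markers given above, of which 7 of 7 were lower in tumor. Of the 6 monocyte and macrophage markers 5 were higher in tumor and 1, Ly6c2, lower (sums of 2025 to 2388 CPM in tumor and 785 to 1458 CPM in spleen), 6 of 7 MHC class II genes were higher, and 3 of 4 red pulp macrophage markers were lower. The part of these markers was not tested.

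In M-MDSC, Calr was higher in tumor by 1.35 ± 0.31 (edgeR adjusted p = 0.00790), Canx by 0.79 ± 0.21 (0.0143) and Pdia3 by 0.71 ± 0.15 (0.00467). Erap1 missed the threshold with 0.61 ± 0.22 (edgeR adjusted p = 0.0562) although its tumor libraries were all higher, as were those of Pdia3, Calr and Canx, against 16.8% of all genes. The called genes were 3 of 9 genes, against 28.4% of all genes. Without tumor library 4 the differences were 1.01 for Calr (edgeR adjusted p = 0.0187), 0.50 for Canx (0.00327) and 0.73 for Pdia3 (0.00328), and Erap1 was called (0.34, 0.0478). Tap1, Tap2, Tapbp, Tapbpl and Nlrc5 were within -0.25 and 0.22, with SEs of 0.14 to 0.30. The ER folding list had 13 of 14 genes higher in tumor in PMN-MDSC and 7 of 14 in M-MDSC, against 29.4% and 15.7% of all genes. Epithelial markers moved with these differences: the 4 genes summed to 13.6 to 228 CPM in tumor and 0.437 to 6.77 CPM in spleen M-MDSC, and to 87.4 to 597 CPM in tumor and 0 to 2.16 CPM in spleen PMN-MDSC, with 3592 to 5764 CPM in bulk tumor. In M-MDSC, 3 of 4 neutrophil markers tested were also lower in tumor. The part of these markers was not tested.

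Between cell types in spleen, M-MDSC had more Erap1 (1.12 ± 0.20, edgeR adjusted p = 0.00109), Pdia3 (1.0 ± 0.18, 0.000979), Tapbpl (0.95 ± 0.36, 0.0406), Canx (0.91 ± 0.26, 0.0122) and Nlrc5 (0.91 ± 0.34, 0.0391) and less Tap2 (-0.81 ± 0.27, 0.0234) than PMN-MDSC. That is 6 of 9 genes, against 64.4% of all genes. Without PMN-MDSC library 1, Tapbpl (0.87, edgeR adjusted p = 0.0828) and Nlrc5 (0.85, 0.0896) lost their calls and Calr gained one (0.99, 0.00764), and without library 2 Tap2 lost its call (-0.59, 0.0506). Without M-MDSC library 1 the count was 3 (Erap1, Pdia3 and Canx), and Tap2 (-0.80, edgeR adjusted p = 0.0636), Tapbpl (0.97, 0.0768) and Nlrc5 (0.84, 0.104) were not called. PMN-MDSC lay above M-MDSC for red pulp macrophage (259 to 878 and 120 to 202 CPM) and erythroid markers (60.8 to 154 and 17.7 to 47.5). The same held for dendritic cell (28.6 to 81.6 and 7.46 to 25.6) and T and NK cell markers (7.24 to 16.1 and 1.96 to 6.44). Monocyte and macrophage markers lay the other way (785 to 1458 and 2679 to 3110). The part of these markers was not tested. In tumor, edgeR called 0 of 9 genes between M- and PMN-MDSC, against 13.0% of all genes, with 0 at an unadjusted p under 0.05 and 0 by DESeq2. Calr, at 0.55 ± 0.26, was called when no filter on low counts was applied, as were 6.07% of all genes.

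Bulk tumor, from untreated mice, held far less of the transporter than the MDSC sorted from tumors. Tap1 was at 4.94, 23.5, 12.8 and 10.4 CPM and Tap2 at 2.86, 8.26, 7.51 and 11.3 CPM, below every MDSC library. Against tumor PMN-MDSC the log2 differences were -3.40 ± 0.38 for Tap1 (edgeR adjusted p = 1.44e-05) and -3.35 ± 0.35 for Tap2 (7.2e-06), and against tumor M-MDSC -3.67 ± 0.38 (5.84e-06) and -3.31 ± 0.39 (1.42e-05).

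Tapbp, Tapbpl and Erap1 were also lower in bulk, all called. The log2 differences from tumor PMN- and M-MDSC were -1.39 ± 0.21 and -1.35 ± 0.23 for Tapbp, -0.68 ± 0.26 and -0.74 ± 0.29 for Tapbpl and -1.13 ± 0.24 and -1.36 ± 0.28 for Erap1. Nlrc5, at 12.7, 98.8, 54.2 and 116 CPM in bulk, was lower than in M-MDSC (-1.35 ± 0.52, edgeR adjusted p = 0.0401) and missed the threshold against PMN-MDSC (-1.11 ± 0.54, edgeR adjusted p = 0.0952). The lowest of these libraries, library 1, was also the lowest for Tap1, Tap2, Tapbp, Tapbpl and Erap1.

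The chaperones were higher in bulk. Calr stood at 3122, 2727, 1765 and 1384 CPM, higher than in tumor PMN-MDSC by 1.27 ± 0.26 (edgeR adjusted p = 0.000886) and than in tumor M-MDSC by 0.79 ± 0.32 (0.0439). Canx, at 1873, 1585, 1311 and 1133 CPM, was higher by 1.26 ± 0.19 (9.12e-05) and 1.0 ± 0.25 (0.00345). Pdia3, at 745, 707, 694 and 693 CPM, was higher than in PMN-MDSC (0.45 ± 0.16, edgeR adjusted p = 0.0272) and missed the threshold against M-MDSC (0.34 ± 0.18, edgeR adjusted p = 0.108). In each comparison 8 of 9 genes were called, against 69.7% of all genes for PMN-MDSC and 69.2% for M-MDSC, and the medians of all genes were 0.11 and 0.17. Without tumor M-MDSC library 4, Nlrc5 lost its call against M-MDSC (-1.48, edgeR adjusted p = 0.0516). Without tumor M-MDSC library 1 or 2 the count against M-MDSC was 5, and Tapbpl (edgeR adjusted p = 0.0870 and 0.244), Calr (0.0919 and 0.105) and Nlrc5 (0.0875 and 0.121) lost their calls. All 8 class I molecules were lower in bulk in both comparisons, with a median of -2.41 and -2.35.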

How the data were processed

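The authors deposited raw counts of read fragments per gene, 1 column per library. Per their methods, reads of a stranded total RNA kit, with ribosomal RNA depleted, were aligned to mm10 with ContextMap and BWA and counted by strand with featureCounts (Subread 1.4.6-p3, per the submitters' processing notes) on Gencode genes. Columns were assigned to groups by the cell type, organ and treatment in their names, G being taken as PMN-MDSC, and 1 column with 10 counts was left out.

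Comparisons used edgeR 4.0.16 (R 4.3.3) on the counts of the groups compared, with TMM factors and the robust quasi-likelihood F-test. Genes were tested where their average reached 25 counts, and those with a Benjamini-Hochberg adjusted p under 0.05 were called. Alternatives were the threshold of the study's methods (adjusted p under 0.001 and a 2-fold change), DESeq2 1.42.0, RLE scaling, library totals, no filter, a fit over all 34 libraries and leaving out each library. Code was tested on simulated data. The 9 genes, the lists and the tests were chosen with earlier results of these data known. All 9 genes are named, with at most 3 genes per list by adjusted p in spleen M-MDSC and the 2 genes of highest r per member. Pdia4 and Uggt1 were added after their values were seen. FPKM used summed exon lengths (GENCODE M21, GRCm38), and 53274 of 53379 identifiers matched. Another allele of the tumor line and 1 of the gene lists are not reported here.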

Additional observations from a re-analysis of the deposited data

Results flagged for a closer look

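In 9 of 63 gene and group combinations with 4 libraries, 1 library lay far from the other 3 by Dixon's criterion, which by chance singles out about 1 in 20 groups. In untreated spleen PMN-MDSC this was library 2 for Tapbp, at 448 CPM against 257 to 289, and for Tapbpl, at 28 CPM against 9.57 to 11. Library 1 of that group stood out for Canx, at 381 CPM against 181 to 202. Library 4 of untreated tumor M-MDSC, the smallest with 793070 counts, stood out for Erap1, at 153 CPM against 77.3 to 81.7, and for Canx, at 1062 CPM against 543 to 583.

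The other flags fell in 3 groups. Tap1 reached 218 CPM in library 2 of untreated spleen M-MDSC, against 142 to 148, and 284 CPM in library 4 of treated tumor PMN-MDSC, against 233 to 236. Erap1 reached 70.8 CPM in library 4 of untreated spleen M-MDSC, against 58.9 to 59.9. Tapbp was low in library 1 of bulk tumor, at 68.1 CPM against 127 to 129.6.

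Of 36 interaction terms of the 9 genes, 2 passed the test, both between M- and PMN-MDSC of the spleen: 2.18 for Calr (edgeR adjusted p = 0.0112) and 1.62 for Canx (edgeR adjusted p = 0.0303), as log2 differences between treatment effects. In that comparison 10.9% of all genes passed. For both genes, every treated spleen M-MDSC library was above every untreated one, a pattern of 13.5% of all genes. Every treated spleen PMN-MDSC library was below every untreated one, a pattern of 14.3%.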

How the results depend on the processing

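Of 459 refitted log2 fold changes with treatment, 390 kept their direction and side of the threshold, 29 lost and 25 gained a call, and 15 changed sign, all of them of changes that had not been called; the causes were not tested. Erap1 changed sign in spleen PMN-MDSC (-0.30 with library totals, -0.0033 with DESeq2, -0.037 in the fit over all 34 libraries, -0.13 to 0.18 leaving out 1 library) and in spleen M-MDSC (-0.035 with library totals, -0.054 to 0.16 leaving out 1 library). Pdia3 did so in spleen PMN-MDSC (0.019 without untreated libraries 1 and 2, an alternative chosen after seeing the data, and -0.60 to 0.025 leaving out 1 library). In tumor M-MDSC, leaving out 1 library gave -0.47 to 0.099 for Erap1, -0.47 to 0.029 for Calr and -0.32 to 0.10 for Canx, above 0 without untreated library 4 in each case. Library totals shifted the 9 changes in spleen PMN-MDSC by a median of -0.28, and those of the other comparisons by medians of at most 0.09.

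The number of members called with treatment was 3, 2, 6 and 0 in spleen PMN-MDSC, tumor PMN-MDSC, spleen M-MDSC and tumor M-MDSC. At an adjusted p under 0.001 with a 2-fold change it was 0 in all 4 by the main edgeR fit, the only fit to which this threshold was applied. In spleen PMN-MDSC it was 7 without a filter, 5 with DESeq2 and 6 in the fit over all 34 libraries (6.58%, 18.6% and 24.1% of all genes), which all included Calr and Canx as lower. The fit over all libraries gave 1 in tumor PMN-MDSC (3.37%). In tumor M-MDSC it was 1 with library totals, 1 without a filter and 2 with DESeq2 (3.65%, 4.10% and 9.53%). Leaving out 1 library gave 0 to 5 (0 without treated library 3, 5 without untreated library 2), 1 to 2, 4 to 7 and 0 to 1 (1 without treated library 3).

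With the stricter threshold, the other counts were 2 between tumor and spleen for PMN-MDSC (5 as reported) and 0 for M-MDSC (3), 1 between cell types in spleen (6), 5 and 3 for bulk tumor against PMN- and M-MDSC (8 each), and 0 for the interaction in spleen (2). These counts are from the main edgeR fits, as are the shares of all genes at that threshold. The shares were 21.7%, 8.60%, 23.2%, 40.5%, 41.9% and 0.119%, in the same order. Without a filter, 1 gene differed between cell types in tumor (0), and the interactions between compartments gave 2 for PMN-MDSC and 1 for M-MDSC (0 each), against 6.07%, 2.0% and 2.21% of all genes. DESeq2 also gave 1 for the latter (3.52%). Without untreated spleen PMN-MDSC libraries 1 and 2 the spleen interaction gave 1. Leaving out 1 library gave 4 to 6, 2 to 4, 3 to 5 and 0 for the comparisons of untreated MDSC, in the order tumor against spleen for PMN- and M-MDSC, then cell types in spleen (3 without M-MDSC library 1) and in tumor. It gave 6 to 8 and 5 to 7 for bulk against PMN- and M-MDSC (5 without tumor M-MDSC library 1 or 2), 1 to 3 for the spleen interaction and 0 to 1 for that between compartments in PMN-MDSC.

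No paired analysis was possible because the columns of the count table carry no mouse number, although the titles of the samples do carry numbers. With 3 or 4 libraries per group and totals down to 793070 counts, Tapbpl rests on the fewest counts of the 9 genes in MDSC, and a change that missed the threshold is not shown to be absent. Reads carry no described molecular identifiers.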
